A study of Bactrocera dorsalis with 4 samples.

Results

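The miRNAs miR-959 to miR-964 come from a compact gene cluster on chromosome arm 2L of Drosophila melanogaster. Members were all entries of status Yes or Diff named miR-959, miR-960, miR-961, miR-962, miR-963 or miR-964, from any arm of the hairpin, in the 4 deposited lists of known miRNAs of the oriental fruit fly Bactrocera dorsalis. The authors' status column compares each sequence with miRBase, the public miRNA registry, and has the values Yes, Diff and New. The rule found 5 names among the 163 known names of status Yes or Diff, namely miR-959-5p, miR-959-3p, miR-960-5p, miR-961-5p and miR-963-3p. They came from 4 hairpins and filled 7 of the 769 entries, an entry being 1 sequence at 1 place in 1 list. miR-962 and miR-964 had no entry in any library.

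The libraries held small RNA from ovaries, testes, the bodies of females without ovaries and the bodies of males without testes, with 1 library per condition. All flies were adults aged 12 days that were kept apart by sex from emergence, and the number of animals behind each library was not given in the sources used here. The lists give names, sequences and positions but no read numbers, so a miRNA is either listed or not listed, no amounts are compared, the depth behind an entry is unknown, and no test between conditions was possible. A miRNA that is not listed may still be present below the depth of that library, and the libraries differed in their number of reads. Over all known names, 122 were listed in ovaries, 134 in testes, 137 in females and 137 in males.

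A miRNA is cut from the stem of an RNA hairpin as a short duplex, and 1 strand of the duplex is usually kept to guide an Argonaute protein to target mRNAs. The strand from the left side of the hairpin is named 5p and the one from the right side 3p. Pairing with a target depends above all on the seed, bases 2 to 8, so a form that starts 1 base earlier or later reads different targets. In Drosophila melanogaster this cluster belongs to a class of recently arisen miRNA clusters that are expressed mainly in the testis and change quickly between species, and it has also been studied for its daily rhythm in the adult fat body. The lists used here come from a single species, and change between species was not tested. The hairpins compared with the listed forms below are placed on arm 2L, a Drosophila melanogaster name. They were not shown to be B. dorsalis sequence.

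The 5 listed sequences are shown because the results below turn on their ends and seeds. They are written as in the lists, with T for U, 5′ to 3′, and the seed is in capitals.
miR-959-5p: cTTAGTACtcgggttgataaa
miR-959-3p: tTGGCATCgggggtattatg
miR-960-5p: tGAGTATTccagattgcatag
miR-961-5p: tTTGATCAccagtaactgagat
miR-963-3p: aCATCTGTatatacctttgttct

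Each name stood for 1 sequence, and miR-959-3p and miR-961-5p had the same sequence in both libraries that listed them. The sequences were 20 to 23 nt long, with a median of 21 nt, against a median of 22 nt over all known sequences of status Yes or Diff. A T stood at the first base of 3 of them, miR-959-3p, miR-960-5p and miR-961-5p, while miR-959-5p began with C and miR-963-3p with A. Over all known sequences of status Yes or Diff, 53.2% (125 of 235) began with T. Over all known names, 111 of 163 had a single sequence and some had up to 9. The GC content of the members ran from 30.4% in miR-963-3p to 50.0% in miR-959-3p, which carries a run of G in its middle.

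All 5 members were listed in few libraries, and none was listed in all 4. miR-959-3p and miR-961-5p were listed in ovaries and testes and in neither body. miR-959-5p and miR-960-5p were listed in females alone, and miR-963-3p in males alone. The grid of members by library shows these 7 listings, with 2 members each in ovaries, testes and females and 1 in males. The same 2 names stood in both gonads, and no member was shared between a gonad and a body or between the 2 bodies. A name listed in 1 library, as 3 of the 5 members were, cannot be shared. Over all 163 names, such lack of sharing held for the 25 listed in 1 library and the 4 listed in both gonads and neither body. Over all 163 names, 40 were listed in at most 2 libraries, as were all 5 members.

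**Figure D1:**
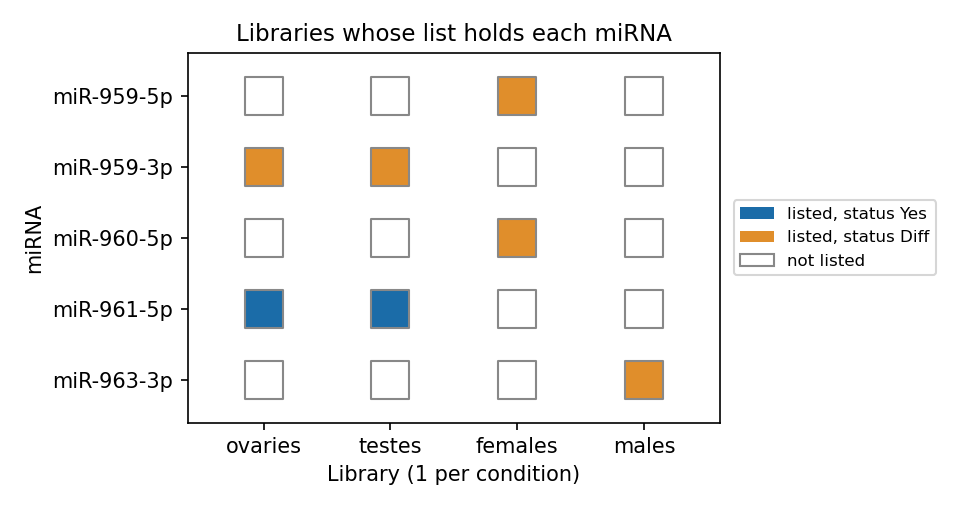
Libraries (columns) whose deposited list holds each member (rows), 1 library per condition. Blue squares are entries of status Yes, orange squares entries of status Diff and white squares names that were not listed; miR-959-3p and miR-961-5p fill both gonad columns, and the other 3 members fill 1 body column each.

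Most known miRNAs were listed in every library. Of the 163 names, 65.0% (106 names, 95% exact binomial interval 57.2% to 72.3%, counting error only) were listed in all 4 libraries, against 0 of the 5 members. A single library listed 15.3% of all names and 3 of the 5 members. The pattern of both gonads and neither body was seen in 2.45% of all names, which is 4 names, and 2 of these 4 were members. The other two were miR-5-3p, from a cluster active in the early Drosophila embryo, and miR-9c-3p, of the conserved miR-9 family. The pattern of miR-959-5p and miR-960-5p, females alone, was shared by 6 further names, and that of miR-963-3p, males alone, by 7. These shares describe the lists, since the members were proposed with results of these data in view.

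The place given to the members was set beside their low detection. All 5 members were placed under arm name 2L, which is a Drosophila melanogaster name, and on no contig of the B. dorsalis genome. Of all names, 19.6% (32 names) were placed only under arm names. Among these 32, 21.9% were listed in all 4 libraries, against 67.8% of the 90 names placed only on contigs and 92.7% of the 41 names placed on both. Without the members, 7 of 27 names placed only under arm names were listed in all 4 libraries and 13 in a single one. How far the place of the members and their low detection are connected was not tested. No genome sequence was used here, so the members were not searched for in the B. dorsalis genome.

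The known names closest to the members in kind fell into a pair of groups. The first holds the X-named names of the Drosophila melanogaster clusters around miR-973 and miR-982, which also arose recently and are expressed in the testis. It is not the paper's own set of X cluster names, which includes miR-9369-5p and leaves out miR-976-3p. Of its 7 names, 1 was listed in all 4 libraries (miR-976-3p) and 4 in a single library, which were miR-973-3p and miR-982-5p in ovaries, miR-984-5p in females and miR-4966-5p in males. Like the members, all 7 had 1 sequence each. The same held for all 27 names outside the members that were placed only under arm names, which include these 7. None of the 7 had the pattern of both gonads and neither body. The other group is the miR-309 cluster, whose members in Drosophila help to clear maternal mRNA in the early embryo. Here 3 of 5 names were listed in all 4 libraries and none in a single library. All 5 were listed in ovaries and in testes, 4 in females and 3 in males, and 1 of them, miR-5-3p, had the pattern of both gonads and neither body. With 5 to 7 names in a group and 1 library per condition, the difference between the groups was not tested.

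**Figure D2:**
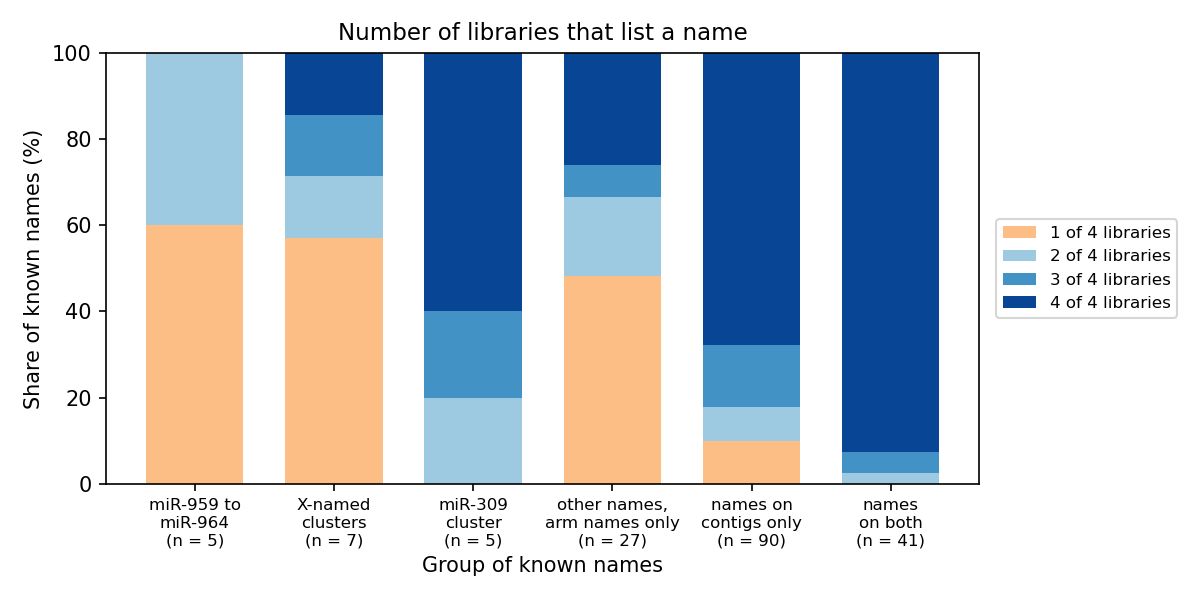
Share of known names (y axis, percent) listed in 1, 2, 3 or 4 of the 4 libraries, by group of names (x axis, n in brackets). The X-named and miR-309 groups also count in the groups by place. The members reach at most 2 libraries. Of the names placed on both contigs and arms, which need more than 1 entry, 92.7% reach 4.

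On arm 2L the 4 hairpins lay within 1139 bases, from 5640940 to 5642078, all on the plus strand. These are the positions in the lists, and the genome build they refer to is not given in the sources used here. The spacing in the B. dorsalis genome was not examined. The miR-959 hairpin came first, at 2L:5640940-5641037, and the miR-960 hairpin began 25 bases after its end, at 2L:5641063-5641155. The miR-961 hairpin followed after another 35 bases, at 2L:5641191-5641279. A stretch of 710 bases with no listed hairpin separated it from the miR-963 hairpin at 2L:5641990-5642078. No other known miRNA was placed within 50000 bases, and the nearest start on the arm was that of miR-275-5p at 7425795. Arm 2L carried 12 known names in all, so the members made up 5 of them.

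**Figure D3:**
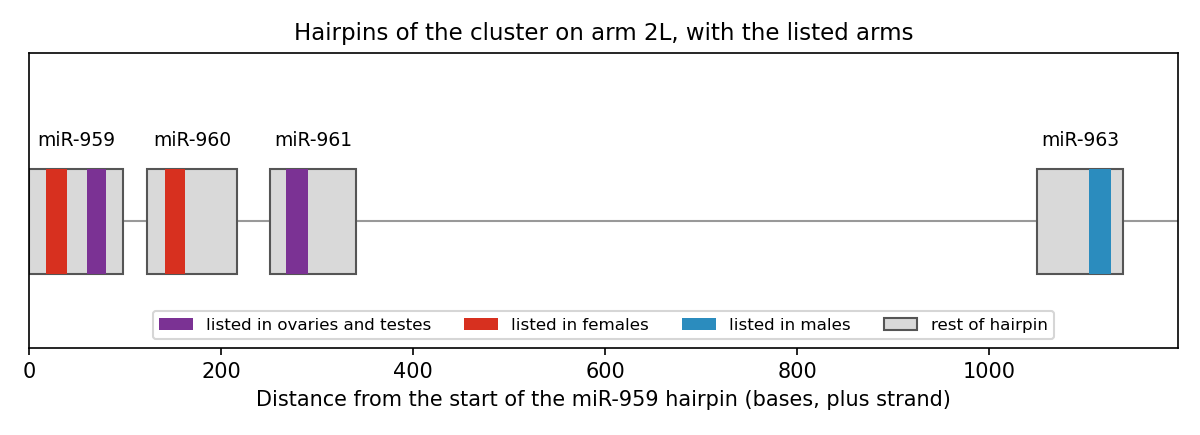
The 4 hairpins (boxes) along the plus strand of arm 2L, by distance in bases from the start of the miR-959 hairpin. Coloured bands are the listed arms, with the colour giving the libraries; the first 3 hairpins lie close together, miR-963 starts 1050 bases from the first start, and neighbouring bands differ in their libraries.

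The 4 hairpins were never all listed in 1 library. miR-959-5p and miR-960-5p, whose hairpins are 25 bases apart, were both listed in females, but miR-961-5p, from the next hairpin, was listed in the gonads, and miR-963-3p in males. In the bodies and gonads alike, no library listed more than 2 of the 4 hairpins. Females listed the hairpins of miR-959 and miR-960, ovaries and testes those of miR-959 and miR-961, and males that of miR-963. Hence the miR-959 hairpin, counted by either arm, was listed in 3 libraries and lacked only in males.

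The hairpins were read from the study's supplementary list of known miRNAs, where they have the same positions, and are shown so that the place of each listed form can be seen. They are placed under arm name 2L and were not shown to be B. dorsalis sequence. The listed form is in capitals, and where list and hairpin differ the hairpin's base is printed.
miR-959: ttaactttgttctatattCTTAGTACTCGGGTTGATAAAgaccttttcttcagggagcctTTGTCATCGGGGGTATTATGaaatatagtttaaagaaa
miR-960: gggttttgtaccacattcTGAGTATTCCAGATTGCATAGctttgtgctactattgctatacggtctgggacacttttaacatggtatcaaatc
miR-961: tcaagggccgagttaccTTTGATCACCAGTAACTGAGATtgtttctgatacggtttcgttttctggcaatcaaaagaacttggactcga
miR-963: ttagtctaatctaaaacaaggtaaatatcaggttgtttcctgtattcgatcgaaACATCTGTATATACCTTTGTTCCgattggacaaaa

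Every listed form fell on the side of the hairpin that its name gives. The hairpins were 89 to 98 nt long, with a GC content of 32.6% to 42.7%. Of the 5 forms, 3 matched their hairpin at every base and the other two differed from it at 1 base each. Counted from the 5′ end of the mature form, with the hairpin's base first, the differences were T4G in miR-959-3p and C23T in miR-963-3p. The first lies inside the seed and the second at the last base of the 23 nt form.

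miR-959 was the only hairpin of the cluster with both arms listed. Its listed arms were separated by 21 bases and were joined by 15 base pairs in the predicted fold of the printed hairpin. The arms never shared a library, since 5p was listed in females and 3p in ovaries and testes. Among the 48 miRNAs with both arms listed over the 4 libraries, miR-959 was the only one whose arms were in no library together. This feature was noticed after the lists were seen. The 5p arm was listed in 1 library and the 3p arm in 2, and pairs listed as rarely were not counted. From the other hairpins 1 arm each was listed, 5p from miR-960 and miR-961 and 3p from miR-963.

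In the study's hairpins, each arm is marked by a run of capitals, to which the listed forms were compared. miR-961-5p, the only member of status Yes, covered its marked arm from end to end. miR-960-5p started at the same base and ended 1 base earlier. miR-959-3p also started at the same base and ended 2 bases earlier, besides its T4G difference. miR-959-5p was shifted by 1 base towards the 5′ end at both its ends. miR-963-3p started 1 base later than the marked arm and ended 2 bases beyond it. All 4 members with such differences had status Diff.

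These small differences reach the seed in 3 of the 5 members. The seeds of miR-960-5p and miR-961-5p were those of the marked arms, while those of miR-959-5p, miR-959-3p and miR-963-3p were not. The marked arms of these 3 are shown for comparison, with the seed in capitals again.
marked arm of miR-959-5p: tTAGTACTcgggttgataaag
marked arm of miR-959-3p: tTGTCATCgggggtattatgaa
marked arm of miR-963-3p: aACATCTGtatatacctttgtt

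The same comparison was made for 141 other sequences, those whose hairpin was in the supplementary list under the same name and place. The lists hold 230 distinct sequences of status Yes or Diff outside the members, so many were not compared. Among the other sequences placed under arm names whose hairpin and marked arm could be compared, 28 of 32 had the seed of the marked arm, against 2 of the 5 members. On contigs the count was 107 of 108. There 100 sequences matched their hairpin at every base and 8 differed from it at 1 base. Whether the marked arms on contigs were set from the listed sequences was not tested. The sources used here do not say how the capitals were set, and the difference from the members was not tested.

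**Figure D4:**
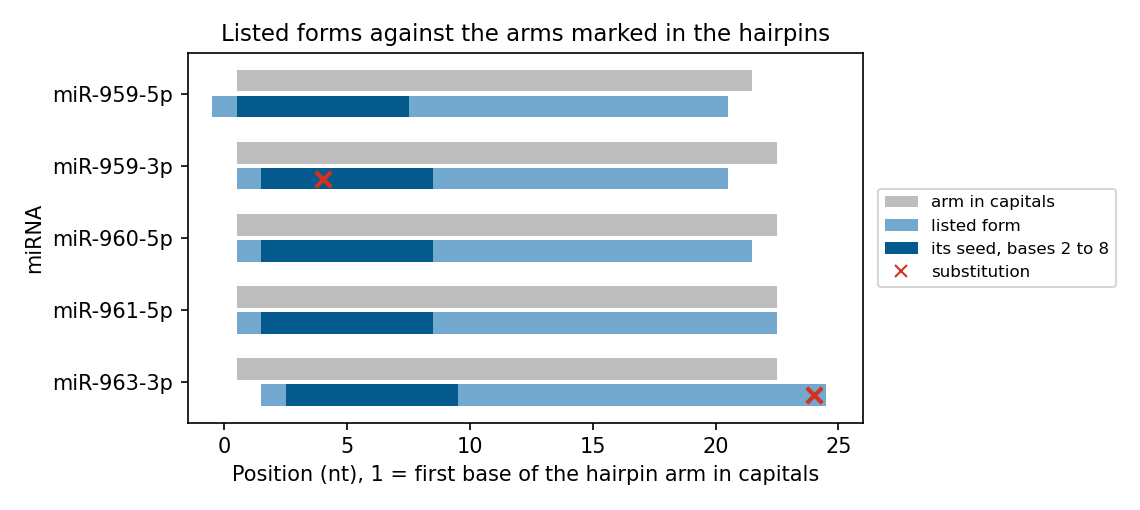
Each listed form (blue, seed dark blue) under the arm marked in its hairpin (grey), by position in nt from the first base of the marked arm; a red cross marks a substitution. miR-959-5p starts 1 base before its arm and miR-963-3p 1 base after it, and the cross of miR-959-3p lies in the seed.

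The 5 members had 5 different seeds, so no seed is shared within the cluster. Outside the cluster only miR-960-5p shared its seed, with miR-12-5p, a miRNA found in many insects. The sequence of miR-12-5p is shown for comparison with that of miR-960-5p above.
miR-12-5p: tGAGTATTacatcaggtactggt

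This form of miR-12-5p is 23 nt long, was listed in all 4 libraries and has a place on contig JFBF01000073.1, from 1266962 to 1267060 on the plus strand. It and miR-960-5p had the same first 8 bases and the same base at 13 of 21 positions in all. Another listed form of miR-12-5p, 25 nt long, of status Diff and placed under X, was in 1 library. That form had only the first 3 bases in an unbroken match with miR-960-5p and did not share its seed. The count of names sharing a seed with a member stayed at 1 when New and predicted miRNAs were added and when bases 2 to 7 were used. Among all known names, 17.2% (28 of 163) shared a seed with a name of another number. miR-959-5p, miR-959-3p, miR-961-5p and miR-963-3p shared theirs with no known or predicted name, and the seeds of their marked arms were not found in other known names either. In the hairpins of the 220 predicted entries, each member had at least 6 mismatches to the best stretch of either strand.

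The folding energies of the 4 hairpins lay inside the range of those of other known miRNAs. At 37 degrees RNAfold gave -28.4 kcal/mol for miR-959, -31.8 for miR-960, -30.9 for miR-961 and -26.6 for miR-963. Per 100 nt, the members' median was -32.0 kcal/mol, against -34.0 for the 110 other hairpins of status Yes or Diff, which ran from -47.6 to -11.3. The 28 other hairpins under arm names had a median of -33.4 kcal/mol per 100 nt. In these folds most bases of each listed form were paired, 18 of 21 in miR-960-5p, 18 of 22 in miR-961-5p, 19 of 23 in miR-963-3p, 16 of 21 in miR-959-5p and 15 of 20 in miR-959-3p. The fold is that of the hairpin as printed, without the substitutions in the listed forms. The folding of a B. dorsalis hairpin for these names was not examined.

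**Figure D5:**
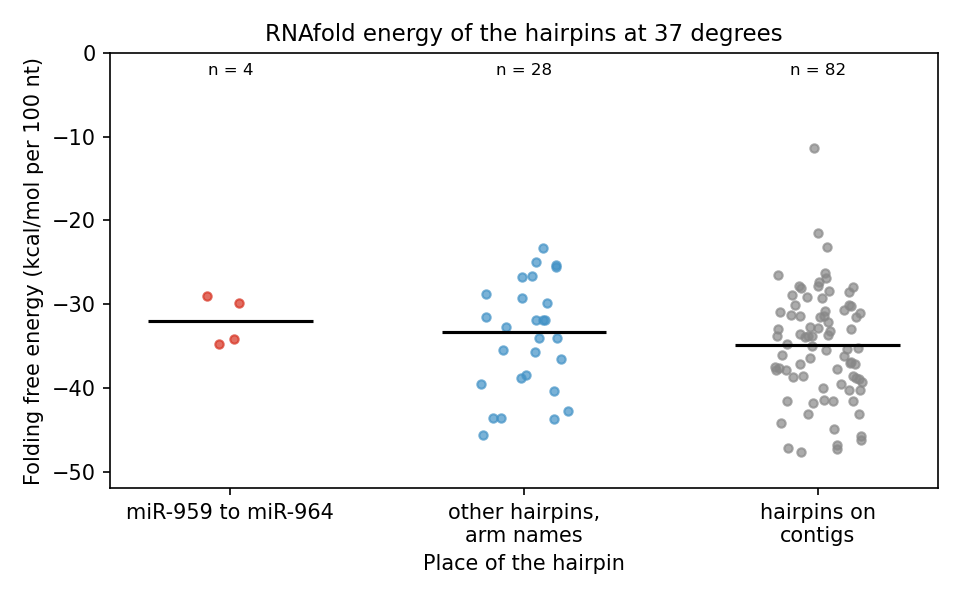
Folding free energy in kcal/mol per 100 nt (y axis) of each distinct hairpin at 37 degrees, by place of the hairpin (x axis), with the median as a line. The 4 cluster hairpins lie between -34.7 and -29.0, inside the range of the others.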

How the data were processed

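The data were 4 lists of known miRNAs and a table of predicted miRNAs of the libraries combined. The authors made the known lists from Illumina small RNA reads by removing adaptors, poor reads and reads of other RNA classes, and by comparing what was left with miRBase entries and with miRNAs found before in this species. Reads still unassigned were searched for hairpins in the genome to give the predicted miRNAs. The deposited values are sequences, lengths in nt and positions in bases, and no counts were read from them. The depth of each library was not used.

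Names that differ only in a copy number were merged and New entries left out. Hairpin sequences came from the study's supplementary table, whose values were not used, and hairpins at a place with no entry of status Yes or Diff were left out of the energy comparison. Listed forms were placed in their hairpin without gaps, at the position with the fewest mismatches. For the count of members placed, 1 mismatch was allowed. In the comparison with other names no limit was set, and 2 sequences under arm names had more than 1 mismatch. Hairpins were folded with RNAfold 2.7.2 at 37 degrees. Shares have 95% exact binomial intervals (scipy 1.17.1). Tables were made with Python 3.11.15 and pandas 2.3.3 and plots with matplotlib 3.10.9. The placing of sequences and the reading of names were tested on simulated data. Alternatives were other ways of counting names, windows of 1000 and 50000 bases besides 10000 for neighbours, seeds of bases 2 to 7, folding at 28 degrees and other mismatch limits. The deposited free energies were not used.

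Named were all members, names with the seed of a member or a start near one, names with the same set of libraries, and the X-named and miR-309 groups. The members, lists and rules were chosen with earlier results of these data known.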

Additional observations from a re-analysis of the deposited data

How the results depend on the processing

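Of the 39 alternative values for counts and shares, 28 stayed within the limits set for them and 11 moved. Small changes could stay within the limits. The 5 members listed in any library became 6 with New entries and 4 with arms joined by number, and both counted as unmoved. New entries were counted by number and arm, so mir-963-p3 counted under miR-963-3p, although the sequences differ. The 4 folding energies at 28 degrees were counted apart, and all 4 moved. With New entries included, 4 arm names were listed in testes instead of 2, since testes held 2 New entries named mir-963, and the shares of all names listed in all 4 libraries and in 1 library became 52.4% and 25.2%. With status Yes only, 1 member was listed in any library, namely miR-961-5p, and the numbers were 1 in ovaries, 1 in testes, 0 in females and 0 in males. With arm-name entries only, the same shares of all names were 31.5% and 34.2%. An exact match placed 3 of the 5 members in their hairpin. No member was listed in all 4 libraries with New entries included, with status Yes only, by distinct sequences or with arms joined by number. At 28 degrees the energies were -36.13, -38.92, -37.73 and -33.0 kcal/mol for miR-959, miR-960, miR-961 and miR-963. The search of the B. dorsalis genome was not run, since no genome sequence was used here. With 1 library per condition, no replicate could be left out, and detection could not be weighed against depth.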

Other observations

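Testes also held 2 entries of miR-963 with status New, mir-963-p5 and mir-963-p3. Both carry the same 19 nt sequence, tctaatcttaaacaaggaa, under opposite arm names, placed on the plus strand of contig JFBF01001308.1 from 1500 to 1594 and of contig JFBF01000638.1 from 35352 to 35410. Its best place in the miR-963 hairpin printed above was from base 5 to base 23, with 2 differences, A9T and T18A, with the hairpin's base first and positions counted from the 5′ end of the 19 nt sequence. The 5p arm marked in that hairpin runs from base 16 to base 39, so the sequence covers its beginning and the flank before it. The 95 nt hairpin given for the first contig folded at -12.8 kcal/mol at 37 degrees, and the 89 nt miR-963 hairpin on arm 2L at -26.6 kcal/mol. These entries were the only ones under the names miR-959 to miR-964 with a place on a B. dorsalis contig, and miR-963-3p itself was not listed in testes.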
